A study of Pichia kudriavzevii with 6 samples.

Results

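The 108 genes described here are abundant genes of the yeast Pichia kudriavzevii whose mean level differed little between 3 growth media, out of 5464 genes measured by RNA sequencing. They were chosen by their measured levels. Each count was divided by the total count of its library and scaled to a library of 1000000 counts (CPM). The 2 libraries of a medium were averaged and 1 was added to give the medium's value. A gene was taken when the 3 ratios between media, SoleS/SoleG, GS/SoleG and SoleS/GS, all lay between 0.8 and its inverse, and the mean of its 3 medium values was at least 150. Of the 5464 genes, 1265 reached this level, and 108 of them (8.54%) also met the ratio limits.

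Every culture used the strain CY902 with URA3 deleted, a gene of uracil synthesis that is widely used as a selection marker, so by the labels no group had the intact gene. Washed cells from an SD (synthetic dextrose) preculture were shaken for 3 hours at 30 °C in fresh SD medium at pH 5.0. The medium held 2% succinic acid as its only carbon source (SoleS), 2% glucose plus 2% succinic acid (GS), or 2% glucose alone (SoleG), each as weight per volume. Each medium had 2 libraries, and the labels do not say whether these came from separate cultures. The series as a whole looks for transporters that carry dicarboxylic acids, such as succinic acid, across the yeast membrane.

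A reference gene is one used as a standard because its transcript level is taken to be steady. Quantitative PCR divides the level of a gene of interest by that of 1 or more such references. In yeasts, genes of actin, tubulin, glycolysis, translation and protein turnover have commonly served for this. A change from a sugar to an organic acid is known to alter glycolysis, gluconeogenesis, respiration and ribosome synthesis, so a reference for 1 carbon source need not serve for another. Genes in these files carry IDs of the form PK followed by a number, which the files do not pair with names. None of the 5464 IDs (0) matched the reference gene table of assembly ASM305444v1, so roles and sequences are not given for the stable genes.

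Library totals lay between 6024768 and 6959188 counts. CPM values are relative to the library total, so a change of total messenger RNA per cell and unequal numbers of cells cannot be told apart from no change in them. How reads were assigned to genes, by strand or by number of matches, is not given in the sources used here. The values of genes with near-identical copies or overlapping neighbours are therefore uncertain.

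The stable genes took a small share of the counts, which the ratio limits keep nearly even between media. They held 3.53% and 3.50% of the counts in SoleS, 3.52% and 3.51% in GS, and 3.71% and 3.77% in SoleG. Both SoleG libraries were above all 4 others. The 1265 genes at the level floor together held 79.3% and 79.2% in SoleS, 79.9% and 79.6% in GS, and 77.3% and 77.9% in SoleG. Most of the abundant transcriptome therefore lay outside the ratio limits: of the 1157 other genes at the floor, 685 (59.2%) differed at least 2-fold between some pair of media. The comparison between SoleS and SoleG met the limits in 228 of the 1265 genes (18.0%), that between SoleS and GS in 229 (18.1%), and that between GS and SoleG in 715 (56.5%).

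Stable genes were rarer at higher read levels. They made up 72 of 657 genes (11%) with a mean value of 150 to 300, 24 of 343 (7.0%) from 300 to 600, and 9 of 153 (5.88%) from 600 to 1200. Above 1200 they were 3 of 112 genes (2.68%). The level is a mean over the media, so a gene strongly raised in only some media can enter a bin through them. Such a gene cannot be stable, and the other genes at the floor had ratios SoleS/SoleG from 0.0021 to 2439. How much of the fall in these shares came from such genes was not tested. The mean CPM of the stable genes over the 6 libraries ranged from 149.5 to 1952, with a median of 223.5. Per kilobase of coding length at that same library size (FPKM, computed from each library's own total) they ranged from 33.1 to 3044, with a median of 183, against a median of 269 for the other genes at the floor and 45.8 for all genes.

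The members with the lowest spread over the 6 libraries were PK2606, PK1000, PK3837, PK5187, PK3585 and PK1570. Spread is given as the coefficient of variation (CV), the SD over the 6 libraries divided by their mean. These values chose the genes, so they are a description and carry no test.

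PK2606, with a coding length of 1764 bases, had 249 and 239 CPM in SoleS, 245.5 and 228 CPM in GS, and 238 and 246 CPM in SoleG. The media overlapped, and its CV of 3.15% was the lowest of the 108 over the 6 libraries. Its counting error alone would give a CV of 2.52%. The CV was 1.96% without GS replicate 2 and 3.07% to 3.475% without any 1 of the other libraries. With each library left out in turn another member had the lowest CV, such as PK1000 at 2.655% without SoleS replicate 1. PK1000, of 750 bases, had 154.5 and 162 CPM in SoleS, 166.5 and 156.5 CPM in GS, and 164 and 167 CPM in SoleG. SoleS lay just below SoleG, and the CV of 3.27% was 1.06 times the counting value.

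PK3837, of 3513 bases, had 753 and 736.5 CPM in SoleS, 756 and 714 CPM in GS, and 705 and 771 CPM in SoleG. Its medium means of 745 ± 12, 735 ± 30 and 738 ± 47 CPM in SoleS, GS and SoleG (SD, n = 2) differed by less than its replicates did, with a CV of 3.47%. PK5187, of 432 bases, had 345 and 329 CPM in SoleS, 360 and 345 CPM in GS, and 334 and 357 CPM in SoleG, with a CV of 3.55%. Here too the ranges of the 3 media overlapped.

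PK3585, of 2811 bases, had 164 and 165 CPM in SoleS, 164 and 169 CPM in GS, and 175 and 179 CPM in SoleG. Both SoleG libraries were above the other 4, and the ratio SoleS/SoleG was 0.927. PK1570, of 972 bases, was the member with the highest CPM, at 1902 and 2014 in SoleS, 2012 and 2029 in GS, and 1915 and 1844 in SoleG. Its CV was 3.90%, against the 0.885% that counting error gives at its depth, so the difference between libraries was larger than counting error.

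**Figure D1:**
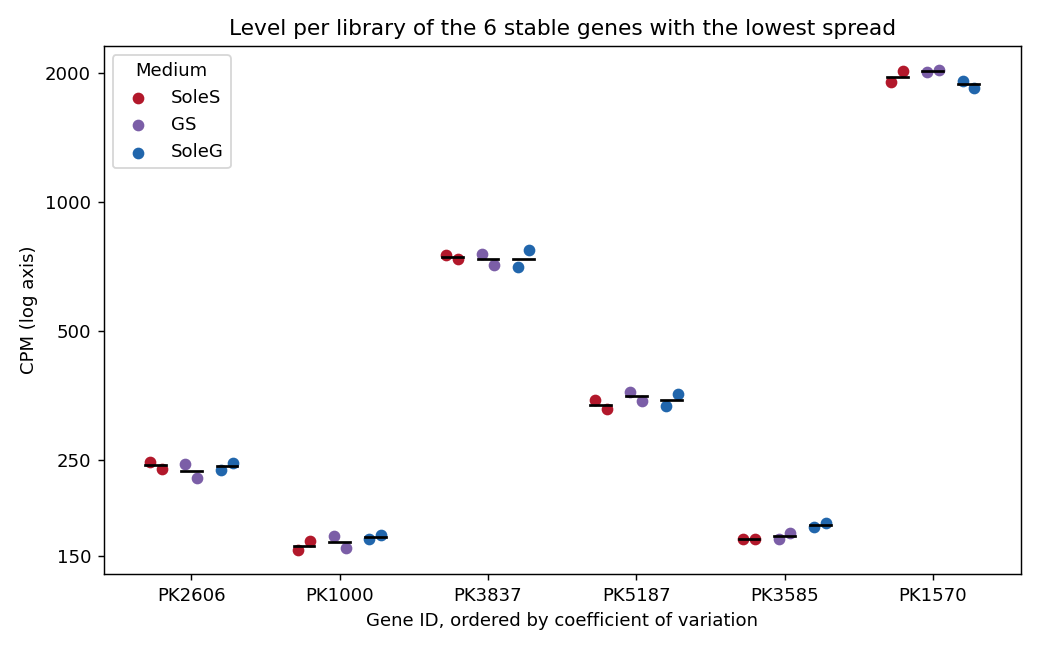
CPM on a log axis for the 6 stable genes with the lowest CV; each point is 1 library (2 per medium) and each bar the mean of a medium. The 3 media lie close together for each gene, from about 155 to 179 CPM in PK1000 and PK3585 up to 1844 to 2029 CPM in PK1570.

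Over all 108 members the CV ran from 3.15% to 13.03%, with a median of 8.27%. It was below 5% in 11 members and above 10% in 27. The median expected from counting error was 2.62%, and the observed CV was above the counting value in each of the 108 members. In 9 of them it was within 2 times that value. The most uneven member, PK1934 of 1269 bases, was picked out with its values in view. It had 1376 and 1164 CPM in SoleS, 1039 and 1243 CPM in GS, and 1243 and 1511 CPM in SoleG, so its replicates differed about as much as its media.

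**Figure D2:**
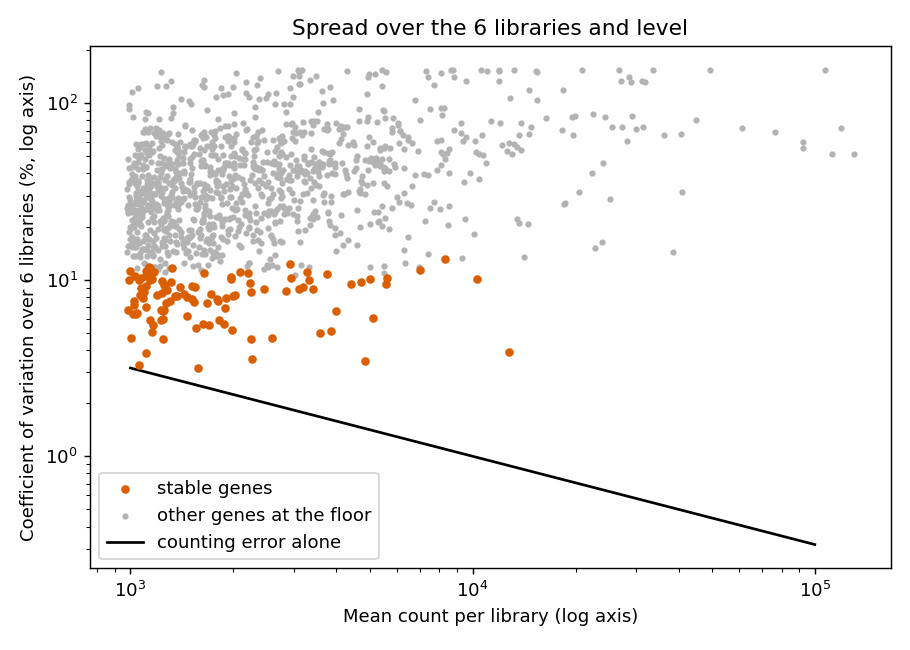
CV over the 6 libraries in percent against the mean count per library, both on log axes, for the 108 stable genes and the 1157 other genes at the floor; the line is the CV that counting error alone would give. The stable genes lie between 3.15% and 13.03%, above the line, and the other genes begin at 10.65%, since the ratio limits chose the low values.

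The limits act on means, so single libraries could differ by more. In 63 of the 108 members (58.3%) every pair of the 6 libraries stayed within those limits, and in 5 every pair was within 1.1-fold. The ratio of the highest to the lowest library had a median of 1.24 and reached 1.455, in PK1934. All 3 ratios between media lay within 0.9 and its inverse in 18 members (16.7%), while in 40 (37.0%) the most extreme ratio was past 1.2-fold.

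Replicates of the same medium differed little in the stable genes. The absolute log2 ratio between the 2 libraries of a medium, averaged over the 3 media, had a median of 0.07 in the members and 0.09 in the other genes at the floor. By medium the medians were 0.07, 0.05 and 0.06 for members in SoleS, GS and SoleG, and 0.08, 0.06 and 0.09 for the other genes. Replicates were within 10% of each other in all 3 media in 76 of 108 members (70.4%) and in 553 of the 1157 other genes (47.8%). The ratio limits are on means of the same libraries, and a wide replicate spread makes it harder to meet them, so this difference is not independent of the choice.

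The largest log2 differences between the replicates of any 1 medium were in PK0512 and PK5162, while the average over the 3 media was highest in PK1934, at 0.26. PK0512, of 1821 bases, had 166 and 208 CPM in SoleS, 187 and 191 CPM in GS, and 165 and 156 CPM in SoleG. Its 2 SoleS libraries spanned nearly the whole range of the gene. PK5162, of 1959 bases, had 193 and 172 CPM in SoleS, 226 and 217 CPM in GS, and 177 and 220 CPM in SoleG. Here the SoleG libraries differed by more than the means of any pair of media.

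To read stability in libraries that the choice had not used, the rule was applied to the replicate 1 library of each medium and its genes were then looked up in the replicate 2 libraries. It chose 103 genes, of which 75 (72.8%) met the same ratio limits in the replicate 2 libraries. Of the 1166 genes at the floor that were not chosen, 26 (2.23%) met them. In the other direction 97 genes were chosen on the replicate 2 libraries and 72 (74.2%) met the limits in the replicate 1 libraries, against 29 of 1170 genes not chosen (2.48%). With the wider limits of 2/3 to 1.5, 101 of the 103 and 95 of the 97 had all 3 ratios inside in the libraries not used. Genes of the same libraries are not replicates of a medium, so these shares have no test. The libraries of a medium may not be separate cultures, so the shares may show only agreement between libraries.

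The order of the steadiest genes carried over only in part. The 6 genes with the lowest CV over the replicate 1 libraries were PK2218, PK1230, PK2606, PK4303, PK0171 and PK1570, with CVs of 1.08% to 3.105%. In the replicate 2 libraries their CVs were 3.86% to 10.35%, where the median of all 103 genes was 9.24%. PK2218, the steadiest in the choice at 175, 175 and 172 CPM in SoleS, GS and SoleG, had 169, 194 and 176 CPM in the other libraries and ranked 31 of 103 there. PK2606 ranked 5 of 103 there and, with the libraries exchanged, 3 of 97.

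Of the 6 genes with the lowest CV over the replicate 2 libraries, PK1000, PK2606 and PK3837 are also among the 6 steadiest over all libraries. The others were PK1275, PK1175 and PK3810. The genes of both sets were named with their values in view. In the replicate 1 libraries their CVs were 2.21% to 6.68%. The geometric mean of such a set of 6 had a lower CV than 5 of its 6 genes. Relative to its own mean, the set chosen on the replicate 1 libraries stood at 0.967, 0.990 and 1.04 in SoleS, GS and SoleG of replicate 2, a CV of 3.91%. The set chosen on the replicate 2 libraries stood at 0.979, 0.997 and 1.02 in those of replicate 1, a CV of 2.32%.

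Within the limits the stable genes leaned to higher values in SoleG. The highest of the 3 medium values was that of SoleS in 22 members, of GS in 18 and of SoleG in 68, and the lowest was that of SoleS in 44, of GS in 53 and of SoleG in 11. The median ratio was 0.924 for SoleS/SoleG, 0.899 for GS/SoleG and 1.004 for SoleS/GS. All genes leaned the same way on this scale: over the 5280 genes with enough counts to be tested, the median log2 ratio by total counts was -0.18 for SoleS against SoleG and -0.15 for GS against SoleG, and it was -0.11 and -0.15 over the members.

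**Figure D3:**
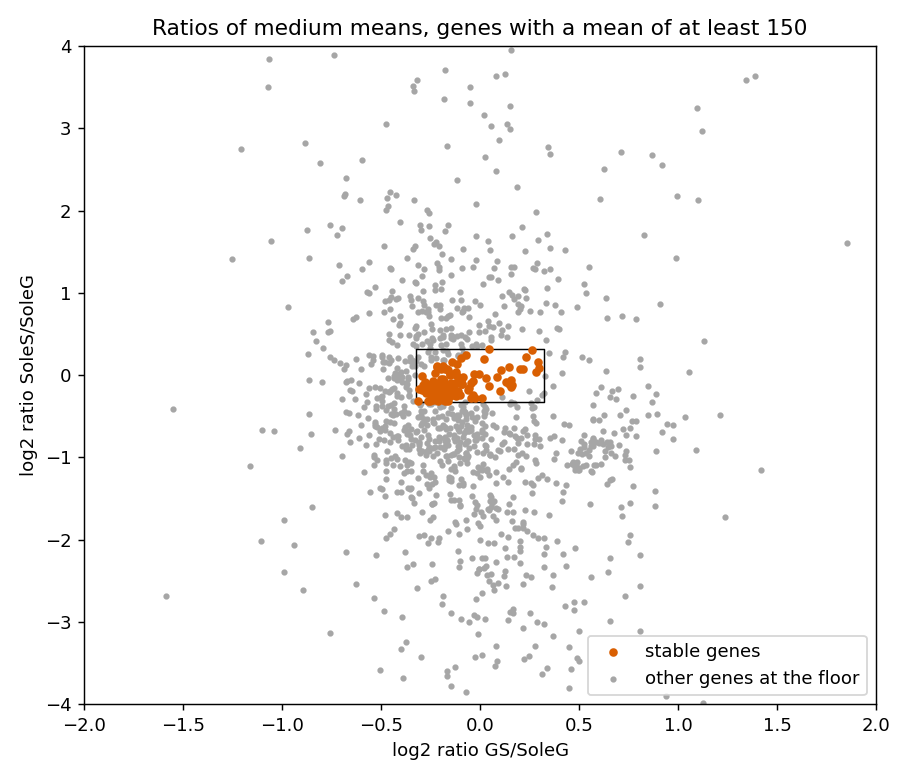
The log2 ratio SoleS/SoleG against the log2 ratio GS/SoleG of the medium values for the 1265 genes at the floor, by total counts; the box marks the ratio limits of 0.8 and its inverse, and 84 genes lie outside the axes. The 108 stable genes crowd the lower left of the box, and genes in the box that are not stable missed the limits for SoleS/GS.

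What counts as stable therefore depended on the scaling. TMM factors set the bulk of genes to no change. Relative to library totals they were 0.957 and 0.972 in SoleS, 0.965 and 0.973 in GS, and 1.08 and 1.06 in SoleG. Counts were divided by them, so the values of SoleG fell relative to those of SoleS and GS. With CPM after TMM factors the median ratio of the members was 1.03 for SoleS/SoleG, 0.993 for GS/SoleG and 1.01 for SoleS/GS. The same rule on these values chose 139 genes, among them 95 of the 108 members (88.0% of the members, 68.3% of the 139). With RLE factors, the median-of-ratios scaling of DESeq2, 144 genes were chosen, 94 of them members (87.0% of the members, 65.3% of the 144). With upper-quartile factors 150 were chosen, 82 of them members (75.9% of the members, 54.7% of the 150). The 82 members chosen under all 4 scalings had a median CV of 8.06% by total counts and a median coding length of 1332 bases.

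The steadiest members changed with the scaling too. After TMM factors the CV was lower in 66 of the 108 members, and its median was 6.26%. PK2606 then had a CV of 6.20%, PK3837 of 6.79%, PK5187 of 6.60% and PK1570 of 8.21%, since each was level by total counts and so higher in SoleS and GS than in SoleG after TMM factors. PK3585 had 2.42% and PK1000 4.44%. PK1570 was the only one of these 6 genes outside the 82.

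**Figure D4:**
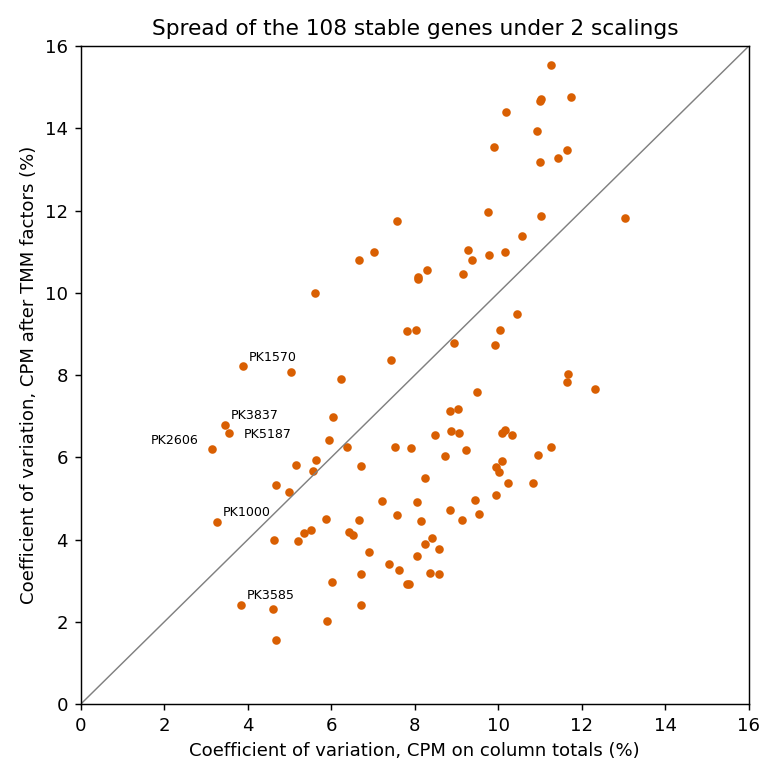
CV of each of the 108 stable genes after TMM factors against its CV by total counts, both in percent, with the line of equal values; the 6 genes with the lowest CV by total counts are named. Of the 6, PK3585 alone lies below the line, at 3.84% by total counts and 2.42% after TMM factors.

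A measure that no scaling can move is the log2 ratio between a pair of genes in the same library. For each member the SD of this ratio over the 6 libraries was averaged over the 107 other members, the measure that reference gene studies call M. It ran from 0.10 to 0.24 with a median of 0.135. PK1549, PK3585, PK1275, PK5130 and PK3810 had the lowest values. Except for PK3585 they were picked with their values in view. PK2606, PK3837 and PK1570 ranked 33, 44 and 73 of the 108. M depends on which genes are compared, and these were chosen together.

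The genes of low M shared a pattern that the measure favours. M is low in genes that vary as the other members do, and most members were highest in SoleG by total counts. PK1549, of 1575 bases, had 171 and 168 CPM in SoleS, 164 and 168 CPM in GS, and 186 and 188 CPM in SoleG. PK1275, of 432 bases, had 383 and 392 CPM in SoleS, 377 and 391 CPM in GS, and 425 and 413 CPM in SoleG. In both genes SoleS and GS overlapped and both SoleG libraries were above them by total counts. After TMM factors their CVs were 2.015% and 1.55%.

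The geometric mean of the 6 genes of lowest CV was level by total counts and not after TMM factors. Relative to its mean over the 6 libraries it stood at 0.991 and 0.991 in SoleS, 1.02 and 0.986 in GS, and 0.990 and 1.02 in SoleG, a CV of 1.62%. After TMM factors it stood at 1.035 and 1.02 in SoleS, 1.055 and 1.01 in GS, and 0.912 and 0.966 in SoleG, a CV of 5.215%. The geometric mean of all 108 members did the reverse, with a CV of 3.76% by total counts and 2.12% after TMM factors. The 6 genes were chosen for low CV by total counts in these libraries, so the choice favours a level mean on that scale. Sets of 6 chosen on the replicate 1 or the replicate 2 libraries had CVs of 3.91% and 2.32% in the libraries not used. Size factors from the 108 members alone were 0.974 and 0.979 in SoleS, 0.970 and 0.964 in GS, and 1.054 and 1.065 in SoleG. They lay near the TMM factors given above, although the replicates of GS and of SoleG were in the other order. The rule bounded the members' ratios by total counts, so the choice held these factors near the library totals.

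Members could still be called in a test of the differences between media. The limits hold by total counts, and members were called on that scale too, as given below. After TMM factors some members lay past the limits, such as PK0700 with a ratio SoleS/SoleG of 1.38. In the model fitted to all genes (edgeR quasi-likelihood test with TMM factors, Benjamini-Hochberg adjusted p below 0.05), 30 of the 108 members were called between SoleS and SoleG, 28 of them higher in SoleS and 2 lower. Of the 5280 genes tested 79.1% were called, 38.2% higher and 40.9% lower. Between GS and SoleG 18 members were called, each higher in GS, where 37.6% of all genes were called, 20.0% higher and 17.6% lower. Between SoleS and GS 36 members were called, 23 higher and 13 lower in SoleS, where 79.4% of all genes were called, 40.0% higher and 39.4% lower. Without GS replicate 1 or GS replicate 2, 11 members were called between GS and SoleG in either case, and 22 or 20 between SoleS and GS. The rule used the same contrasts, so these counts only describe the members.

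Some of these splits moved with the scaling, as did those of all genes. By total counts, the scale of the rule, 48 members were called between SoleS and SoleG, 7 higher and 41 lower in SoleS (79.5% of all genes called, 33.0% higher and 46.5% lower). Between GS and SoleG 50 were called, 7 higher and 43 lower in GS (45.6% of all genes, 13.2% higher and 32.4% lower). With upper-quartile factors 51 members were called between SoleS and SoleG and 51 between SoleS and GS, each higher in SoleS. Of all genes 79.3% were then called between SoleS and SoleG, 42.9% higher and 36.4% lower, and 79.6% between SoleS and GS, 44.7% higher and 34.9% lower.

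Other splits stayed near those with TMM factors. Between SoleS and GS 34 members were called by total counts, 21 higher and 13 lower in SoleS (79.1% of all genes). Between GS and SoleG 17 were called with upper-quartile factors, 16 higher and 1 lower in GS (37.7% of all genes). With RLE factors 32 members were called between SoleS and SoleG, each higher in SoleS (79.3%), 19 between GS and SoleG, each higher in GS (37.9%), and 36 between SoleS and GS, 23 higher and 13 lower in SoleS (79.5%). DESeq2 called 28 members between SoleS and SoleG, each higher in SoleS (72.6%), 17 between GS and SoleG, each higher in GS (28.9%), and 28 between SoleS and GS, 17 higher and 11 lower in SoleS (73.0%).

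The member with the highest ratio SoleS/SoleG after TMM factors was PK0700, of 648 bases, with 552 and 588 CPM in SoleS, 473 and 476 CPM in GS, and 468 and 450 CPM in SoleG by total counts. Both SoleS libraries were above the other 4. Its ratio SoleS/SoleG was 1.24 by total counts and 1.38 after TMM factors, which is outside the limit. PK2758, of 2133 bases, had the lowest ratio, with 154 and 160.5 CPM in SoleS, 173.5 and 177.5 CPM in GS, and 195 and 198 CPM in SoleG. The 3 media did not overlap, and its ratio SoleS/SoleG was 0.801 by total counts and 0.889 after TMM factors.

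PK2758 was also 1 of the 2 members nearest to the ratio limit, with PK1273, whose ratio SoleS/GS was 1.249. Just outside lay PK5426, with a ratio SoleS/SoleG of 0.7998, and PK2122, with 0.7987. At the level floor, PK4303 and PK2911 were just inside with mean values of 150.5 and 151.8, and PK3692 and PK3913 met the ratio limits just outside it with 149.7 and 148.5. Just past the ratio limit, 32 other genes at the floor had their most extreme ratio between the limit and 1.3-fold. Without a level floor 756 genes met the ratio limits. These include the 121 genes with no count in any library, whose ratios are 1 through the added 1.

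Coding length was not a term of the rule, but the level floor is on CPM, which is not divided by length. A comparison of length with all genes is therefore not independent of the choice. Lengths ran from 171 to 5127 bases in the stable genes, against 153 to 6672 bases in the other genes at the floor. The median was 1416 bases in the members, 1248 bases in the other genes at the floor and 1215 bases in all 5464 genes. The middle 50% of the members lay between 830 and 2101 bases, against 783 and 1797 bases in the other genes at the floor. Members made up 14 of 203 floor genes below 600 bases (6.90%), 30 of 382 from 600 to 1200 bases (7.85%), 47 of 507 from 1200 to 2400 bases (9.27%) and 17 of 173 above that (9.83%). These are counts over genes, with no test.

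**Figure D5:**
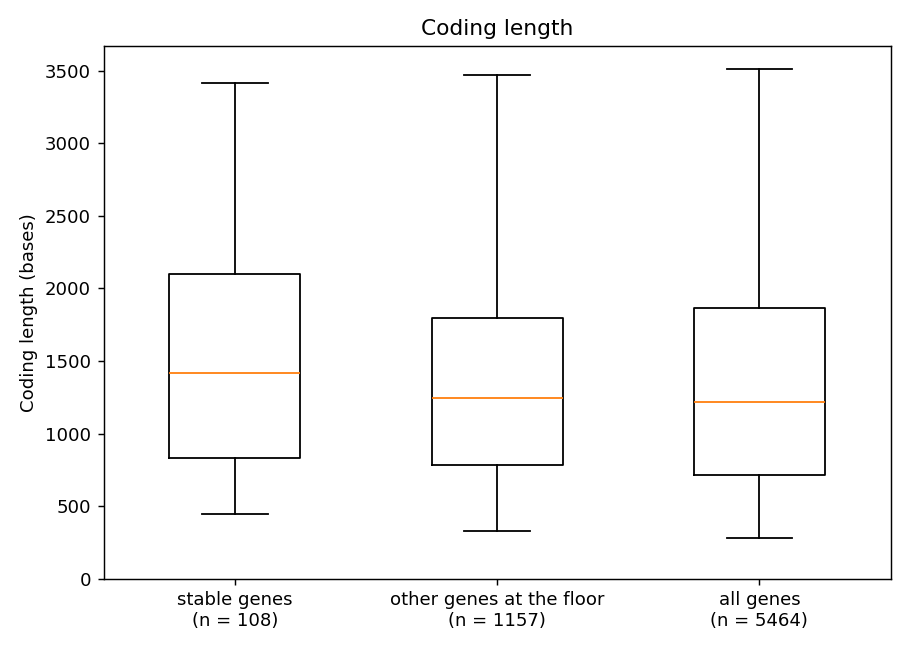
Coding length in bases of the 108 stable genes, the 1157 other genes at the floor and all 5464 genes; boxes give the median and quartiles, and whiskers the 5th and 95th percentiles. The median of the stable genes, 1416 bases, is above those of the other genes at the floor and of all genes, at 1248 and 1215 bases, and the boxes overlap.

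The ends of the length range were PK2707 and PK0383. PK2707, of 171 bases, had 488 and 451 CPM in SoleS, 538 and 539 CPM in GS, and 584 and 523 CPM in SoleG, and both SoleS libraries were the lowest. It had the highest level per length of the members, a mean of 3044 FPKM, followed by PK1570 at 2009 FPKM and PK5009 at 1665 FPKM. PK0383, of 5127 bases, had 140 and 156 CPM in SoleS, 186 and 177 CPM in GS, and 179 and 181 CPM in SoleG. Both its SoleS libraries were below the other 4, and its mean of 33.1 FPKM was the lowest of the members.

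PK5009, of 942 bases, was second in CPM to PK1570, with 1369 and 1431 CPM in SoleS, 1724 and 1693 CPM in GS, and 1482 and 1711 CPM in SoleG. SoleS was below both other media, with a ratio SoleS/GS of 0.819. Its SoleG libraries differed by more than those of the other media, at 1597 ± 163 CPM in SoleG against 1400 ± 44 in SoleS and 1709 ± 22 in GS (SD, n = 2).

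The deposited FPKM values give another set of stable genes. For the second GS library they rest on the count total of the first, which makes each of them 0.929 times the value from its own total. With these values multiplied back by coding length, the rule chose 92 genes, 90 of them among the 108 (83.3% of the members, 97.8% of the 92), so 18 members were missed through that total. With the FPKM values of each library rescaled to a common sum instead, and the level floor kept on CPM, 80 genes were chosen and 57 of them were members (52.8% of the members, 71.2% of the 80).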

How the data were processed

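RNA sequencing gave 6 libraries, 2 for each of the 3 media. Per the file headers, each deposited file holds for every gene the coding length, the count and an FPKM value. The submitters' processing notes name Bowtie2 2.2.5. The deposited counts are raw whole numbers per gene and were used for all results. The authors scaled FPKM by coding length and by library total, except in GS replicate 2. The coding lengths, per the file headers, are all multiples of 3, and 10 blank lines were dropped.

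The members and the rule for named genes were chosen with earlier results of these data known. Named genes are the 6 members of lowest CV, those of highest FPKM and CPM, of largest replicate difference, of extreme length or TMM ratio, and the genes nearest each limit. CPM and ratios were computed in Python 3.11.15. All 108 members passed edgeR's filterByExpr, which kept 5280 genes. One edgeR 4.0.16 model (R 4.3.3, TMM, glmQLFit) of the 3 media had 3 residual degrees of freedom, and it and the rule were tested on simulated data. DESeq2 1.42.0, other factors, filters, limits and libraries left out were alternatives. The mean chi-square per gene between replicates, which is 1 under sampling noise alone, was 3.98 in SoleS, 2.83 in GS and 5.69 in SoleG, so they were distinct libraries. The p-values reflect the spread between them, which may be technical, and counting errors cover counting alone.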

Additional observations from a re-analysis of the deposited data

How the results depend on the processing

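The set of 108 genes changed with the limits themselves. Ratios within 0.9 and its inverse left 18 genes, ratios within 2/3 to 1.5 gave 292, a level floor of 50 gave 353, a floor of 500 left 18, and requiring every pair of libraries to be within the limits left 63. With a library left out the set held 97 to 110 genes. Called members then numbered 21 to 30 between SoleS and SoleG, 11 to 18 between GS and SoleG (11 without GS replicate 1 and 11 without replicate 2, against 18) and 20 to 37 between SoleS and GS (22 and 20 without these libraries, against 36). The lone library of a medium was then assumed to vary like the others. By total counts 48 members were called for SoleS against SoleG and 50 for GS against SoleG, and upper-quartile factors gave 51 for SoleS against SoleG and 51 for SoleS against GS. The cause was not tested. The replicate block gave 27, 16 and 34 called members for SoleS against SoleG, GS against SoleG and SoleS against GS, where 30, 18 and 36 were called without it. The numbers showed no pairing of libraries: differences between replicates 1 and 2 correlated across genes at -0.08, -0.03 and 0.02 between the media. Of genes chosen on replicate 2, 72 met the limits in replicate 1, and 109 did with upper-quartile factors, which chose more genes. The median CV of 8.27% became 6.26% after TMM factors and 9.47% with deposited FPKM, and was 7.74% to 8.45% with a library left out. The median replicate difference of 0.07 on the log2 scale was 0.089 with deposited FPKM, and 0.06 to 0.07 with a library left out. The members' mean share of counts, 3.59%, was 3.40% of the deposited FPKM and 3.55% to 3.61% with a library left out. These FPKM values carry the wrong total of GS replicate 2, which cancels in the share. TMM factors and left-out libraries for single genes, scalings for the libraries not used, and FPKM multiplied by length were chosen after seeing the data.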
